A study of Saccharomyces cerevisiae x Saccharomyces kudriavzevii with 6 samples.

Results

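The genes of glycogen synthesis and breakdown were followed in the *S. cerevisiae* x *S. kudriavzevii* wine hybrids VIN7 and W27, fermenting Tempranillo must at 12°C or at 28°C. They were picked by ORF identifier: 8 identifiers were sought, and 5 have a row among the 5616 ORFs of the deposited table. These are *GLG1* (YKR058W), *GLG2* (YJL137C), *GSY2* (YLR258W), *GLC3* (YEL011W) and *GDB1* (YPR184W). *GSY1* (YFR015C), *GAC1* (YOR178C) and *GPH1* (YPR160W) were not analysed here. RNA was taken at the start of exponential growth, and each of the 6 dual-colour arrays, 3 per hybrid (replicates A, B and C), compared the 12°C with the 28°C sample of one strain. The spots are PCR products of the ORFs of S288c, a laboratory *S. cerevisiae* strain, so a spot does not tell the alleles of the parental species apart. The share of each species' allele in the signal was not examined. The 12°C sample carried Cy5 on all arrays but the dye-swapped VIN7 C, so that in W27 dye and temperature cannot be told apart. Each strain is 1 commercial allotriploid, and the chromosomes from which losses are described in the study (III, IV and VII in VIN7, and IV, IX and XV in W27) are not those of the 5 measured genes, which by their identifiers lie on V, X, XI, XII and XVI. Equal copies of each parental allele in the strains do not follow from this. The study lists *NUG1*, for example, as CKK in W27 and CCK in VIN7 (C for the *S. cerevisiae* and K for the *S. kudriavzevii* allele). It gives no allele copies for the 5 genes.

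Glycogen is a branched polymer of glucose that yeast stores as a reserve carbohydrate, typically as growth slows or nutrients run short. The glycogenins Glg1 and Glg2 prime a new chain, the glycogen synthases Gsy1 and Gsy2 extend it, and the branching enzyme Glc3 adds the branches. Glycogen phosphorylase (Gph1) and the debranching enzyme (Gdb1) take it apart again. Synthase is inactive when phosphorylated, and the protein phosphatase Glc7, brought to glycogen by targeting subunits such as Gac1, reactivates it. None of this control of the enzyme is read by an RNA measurement.

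All values are log2 ratios of 12°C over 28°C, so that 0 is no difference and 1 is 2-fold more RNA at 12°C. They are differences between temperatures and say nothing of how abundant one transcript is against another. The median over all ORFs lay between -0.11 and 0.083 on every array, but the arrays had no common spread: the SD over ORFs ran from 0.39 on VIN7 C to 1.71 on VIN7 B. For this reason each value is also given as a percentile among the ORFs measured on the same array, where 50 is the middle. The arrays of a strain were uneven (r over ORFs between 0.055 and 0.37 in VIN7), and W27 A ran against W27 B (r = -0.14) and W27 C (r = -0.19), while these correlated with each other (r = 0.79). Across the strains, VIN7 A had an r of 0.61 with array C of W27 and of 0.66 with array B. Its r with the other VIN7 arrays was lower, at 0.36 for B and 0.37 for C. The arrays thus did not group by strain, which limits every comparison of the strains. W27 A also had an r below 0 with each VIN7 array (-0.24, -0.10 and -0.27 for A to C). For the glycogen genes, W27 means are therefore given with and without W27 A. The W27 means and counts of the other listed genes include it. The methods describe 2 independent fermentations per strain, each sampled 3 times, whereas the labels call the 3 arrays of a strain biological replicates. By the methods, at least 2 arrays of a strain would share a fermentation, and which ones is not given, so n counts arrays and the p-values measure the spread between these arrays, which may be partly technical.

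Of the 5 glycogen genes, *GSY2*, the synthase, was alone in being at least 2-fold higher at 12°C on every VIN7 array that measured it. *GDB1* also had a VIN7 mean above 2-fold, from a pair of uneven values. *GLC3*, *GLG1* and *GLG2* had VIN7 means under 2-fold, between -0.034 and 0.48. In W27 the values differed by array: every gene measured was below 0 on W27 A, whereas on W27 B and C all values but one were above 0. None of the 5 genes passed the false discovery rate of 5% with all arrays (limma, Benjamini-Hochberg over all ORFs with at least 2 values), but neither did any other ORF: 0% of the 5100 ORFs tested in VIN7, of the 4894 tested in W27 and of the 4670 tested between the strains were called. At an unadjusted p under 0.05, limma had 279 ORFs in VIN7 (5.47%), 356 in W27 (7.27%) and 147 between the strains (3.15%), among which *GSY2* in VIN7 was the only glycogen gene.

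**Figure D1:**
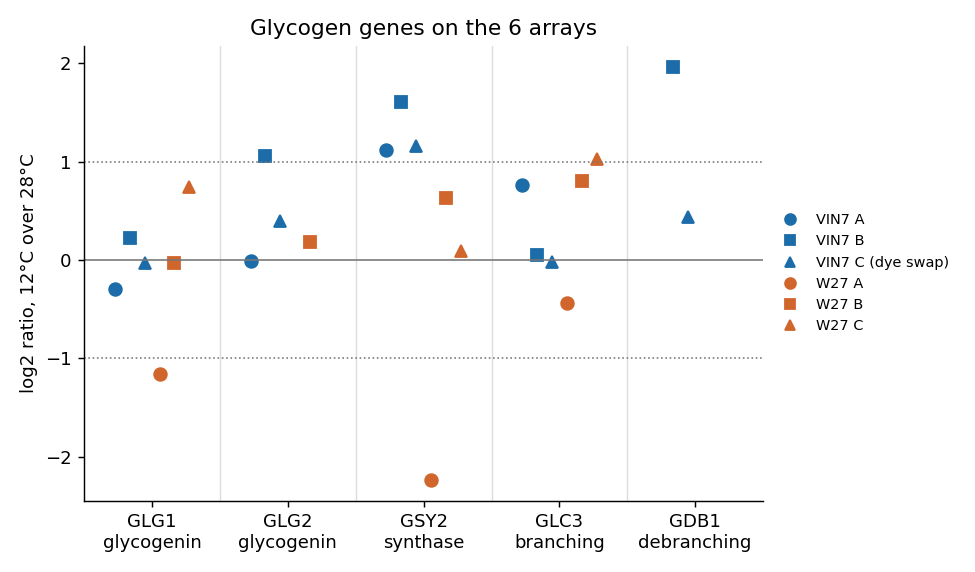
Log2 ratio of 12°C over 28°C of each measured glycogen gene (x axis) on each array (points; colour gives the strain and shape the replicate), with solid and dotted lines at no difference and at 2-fold. *GSY2* lies at 1.122 or above on all 3 VIN7 arrays and at -2.235 on W27 A, and *GDB1* has no W27 value.

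Chain initiation was examined first. *GLG1*, one of the glycogenins, was at -0.294 on VIN7 A, 0.220 on VIN7 B and -0.029 on VIN7 C. These values lie on both sides of 0 and between the 33.9 and 55.3 percentiles of their arrays, so the change between temperatures was near the middle of all ORFs or somewhat below it. Its VIN7 mean was -0.034 ± 0.26 (SD, n = 3), with a limma 95% interval of -0.75 to 0.68. In W27, *GLG1* was at -1.158 on array A, -0.027 on array B and 0.744 on array C. The highest and the lowest value differ by 1.90 on the log2 scale (3.74-fold), and the W27 mean of -0.147 ± 0.96 (SD, n = 3; limma adjusted p = 0.955) became 0.36 without W27 A (adjusted p = 0.34).

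*GLG2*, the second glycogenin, was at -0.013 on replicate A of VIN7, 1.059 on B and 0.392 on C, a mean of 0.48 ± 0.54 (SD, n = 3) with a limma adjusted p of 0.612. VIN7 A put it in the middle of the array (percentile 49.9), whereas VIN7 B and C put it at the 76.6 and 86.5 percentiles. It had 1 value in W27, 0.179 on array B (percentile 60.4), which has no replicate. On each of the 4 arrays that measured both glycogenins, *GLG2* was above *GLG1*, by 0.281, 0.839 and 0.421 in VIN7 and by 0.206 on W27 B. The spots of similar genes can share labelled cDNA, and this was not examined for the pair.

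Chain elongation gave the clearest value of the set. *GSY2*, which encodes the synthase that predominates when cells stop growing, was at 1.122 on VIN7 A, 1.609 on VIN7 B and 1.156 on VIN7 C. All 3 are above 2-fold, at the 93.1, 85.2 and 99.6 percentiles, and on VIN7 C the value was 23rd of 5565 ORFs although that array had the narrowest spread. The mean of 1.30 ± 0.27 (SD, n = 3) is 2.45-fold, with a limma 95% interval of 0.58 to 2.02. Its p of 0.00642 by limma was the fourth smallest of 5100, but the adjusted p was 0.612. A log2 ratio of at least 1 on all 3 VIN7 arrays was found for 6 of 3359 ORFs with complete values (0.179%), and values above 0 on all 3 for 819 (24.4%). By size alone *GSY2* was less unusual, its mean being 141st of the 3359. SAM (Significance Analysis of Microarrays), which the study names as its test, called it higher at 12°C, with 11 of those 3359 ORFs in all (0.327%) at a false discovery rate under 5%. That rate was estimated from 8 sign flips of 3 arrays and is only a rough guide. The smallest exact sign-flip p that 3 arrays can give for 1 gene is 0.25. *GSY2* stands in the study's list of VIN7 genes up-regulated at low temperature, and since that list was drawn from these arrays, the call is not independent evidence. The dye-swapped VIN7 C gave nearly the same value as VIN7 A in the deposited direction, and with its sign turned the mean was 0.53.

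In W27, *GSY2* was at -2.235 on array A, 0.633 on array B and 0.090 on array C. The values span from the 5.36 percentile on array A through 50.4 on array C to 77.5 on array B, so no single direction describes the strain. The mean was -0.50 ± 1.52 (SD, n = 3; limma adjusted p = 0.859), and 0.36 without W27 A (adjusted p = 0.311). The direction of *GSY2* in W27 thus depended on 1 array.

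Branching followed another pattern. *GLC3*, the branching enzyme, was at 0.757 on VIN7 A, whereas replicate B gave 0.052 and C gave -0.018. Only VIN7 A placed it high (percentile 87.1, against 49.9 and 49.3), and the VIN7 mean of 0.26 ± 0.43 (SD, n = 3) had a limma adjusted p of 0.709. In W27 it was at -0.440 on array A, 0.806 on array B and 1.028 on array C. The last pair lay at the 82.5 and 84.2 percentiles. The W27 mean was 0.46 ± 0.79 (SD, n = 3; limma adjusted p = 0.817). Without W27 A, *GLC3* rose at 12°C by a mean of 0.92 (SD 0.16, n = 2; limma adjusted p = 0.0188), and with arrays weighted by their estimated precision by 0.86 (adjusted p = 0.0256). Those fits called a large share of all ORFs, 1540 of 3938 (39.1%) and 1743 of 4894 (35.6%). The ORFs called higher at 12°C were 769 (19.5% of those tested) and 823 (16.8%), so calls were nearly balanced between the directions. Since the weight estimated for W27 A was 0.158 against 2.94 and 2.15, both fits rest mainly on W27 B and C. W27 B and C were both above 0 for 39.3% of ORFs, and a negative W27 A with positive W27 B and C, the signs of *GLC3* and *GSY2*, for 24.7%.

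Breakdown was represented by *GDB1* alone, the debranching enzyme that frees the glucose units at branch points. Replicate B of VIN7 gave 1.965 and replicate C 0.436, and there was no value on VIN7 A or on any W27 array. The values differ by 1.53 on the log2 scale (2.89-fold), yet they occupy almost the same rank on their arrays, at the 89.2 and 88.9 percentiles. The mean was 1.20 ± 1.08 (SD, n = 2), with a limma 95% interval of -0.36 to 2.76 and an adjusted p of 0.612. No response in W27 can be given, a gap shared with 136 of the 5616 ORFs (2.42%) that had no W27 value.

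**Figure D2:**
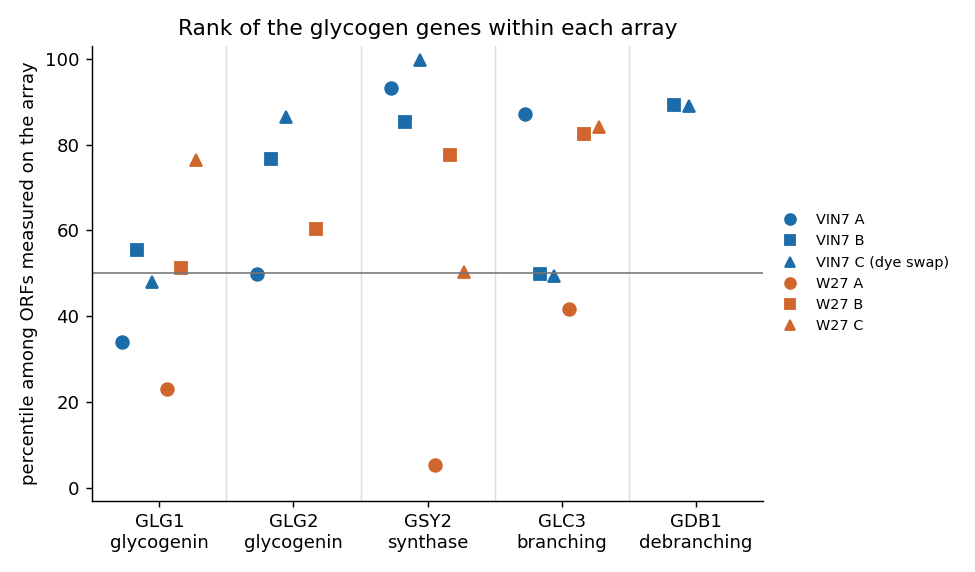
Percentile of each glycogen gene (y axis, 0 lowest and 100 highest log2 ratio) among the ORFs measured on the same array, with points as strain (colour) and replicate (shape) and a line at the middle of the array. *GDB1* and *GSY2* lie at the 85.2 percentile or above on each VIN7 array that measured them, and on W27 A all 3 measured genes lie below 50.

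Taken by array, the median over the measured glycogen genes was 0.37 on VIN7 A (4 genes), 1.06 on VIN7 B (5 genes) and 0.39 on VIN7 C (5 genes), at median percentiles of 68.5, 76.6 and 86.5. It was -1.16 on W27 A (3 genes, percentile 23.0), 0.41 on W27 B (4 genes, percentile 68.9) and 0.74 on W27 C (3 genes, percentile 76.4). Thus 5 of the 6 arrays had the median gene in the upper part of the array and W27 A in the lower. In VIN7, 4 of the 5 genes had a mean above 0, against 48.5% of all ORFs, and the median of their means was 0.48, against -0.025. That median was 0.73 without VIN7 A, 0.37 without VIN7 B and 0.28 with VIN7 C turned. A median over arrays of at least 1 was reached by 2 of the 5 in VIN7 (*GSY2* and *GDB1*), against 5.71% of ORFs higher and 4.10% lower, and by none of the 3 tested in W27, against 10.3% higher and 10.8% lower. With *GLG1*, *GSY2* and *GLC3* alone measured more than once in W27, 1 of 3 had a mean above 0 there (all ORFs 48.5%). None of these was above 0 on all 3 W27 arrays (13.0% of 3613 ORFs), and none at least at 1 on all of them (1.08%).

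**Figure D3:**
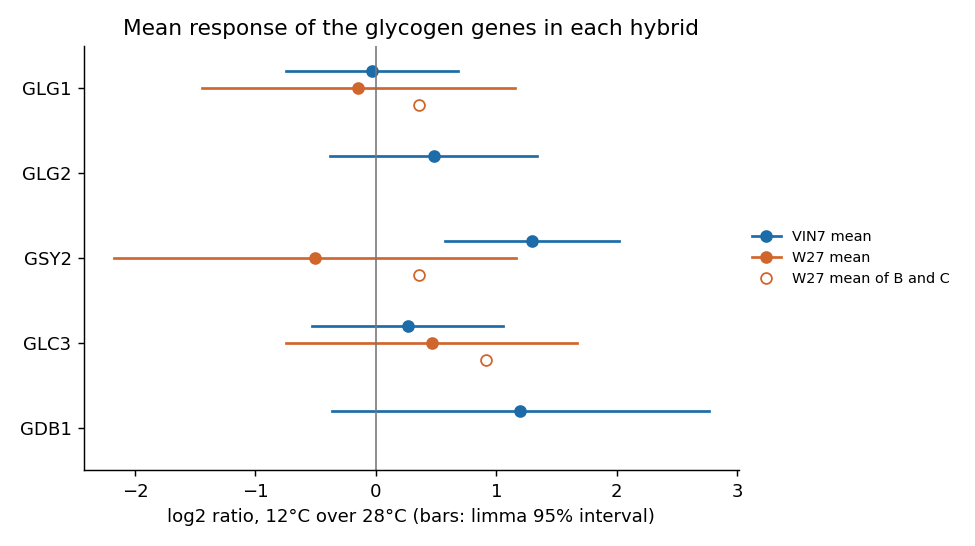
Mean log2 ratio of 12°C over 28°C (x axis) of each glycogen gene in VIN7 and W27 (filled points) with the limma 95% interval (bars), and the W27 mean of arrays B and C alone (open points). The interval of *GSY2* in VIN7, 0.58 to 2.02, is the only one clear of 0, and the W27 means of *GLG1* and *GSY2* lie on the other side of 0 once W27 A is left out.

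The strains were then compared gene by gene. For *GSY2* every VIN7 array lay above every W27 array, an arrangement found for 9.87% of the 2674 ORFs with values on all 6 arrays. W27 minus VIN7 was -1.80 (standard error 0.79, limma 95% interval -3.62 to 0.020, adjusted p = 0.893). Without W27 A the difference was -0.93 (standard error 0.39, adjusted p = 0.536), and the lowest VIN7 value, 1.122, still exceeded the highest W27 value, 0.633. It shrank to -0.31 when W27 A was turned. For *GLC3* the difference was 0.20 (limma 95% interval -1.17 to 1.57) and for *GLG1* -0.11 (interval -1.54 to 1.31), and for both the arrays of the strains overlapped. These intervals leave room for differences of 2-fold either way, so equal responses are not shown. *GLG2* and *GDB1* could not be compared. An exact permutation test of 3 against 3 arrays cannot give a two-sided p below 0.1.

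Because centring moves all genes of an array alike, the genes were also set against each other within each array, a comparison chosen after the values were seen. The log2 ratio of *GSY2* minus that of *GLC3* was 0.365, 1.557 and 1.174 in VIN7 (replicates A to C in order). In W27 it was -1.795, -0.173 and -0.938. The ratio of the synthase thus exceeded that of the branching enzyme on each VIN7 array and fell short of it on each W27 array, with means of 1.03 ± 0.61 and -0.97 ± 0.81 (SD, n = 3 each). The exact two-sided permutation p was 0.1, the smallest this design allows, or 0.15 after Benjamini-Hochberg adjustment over the 3 pairs of genes with complete values. Once all values of one strain lie above those of the other, this p follows from their order. The adjustment does not correct for choosing the pair with its values known. Without W27 A the signs stood on W27 B and C, but turning W27 A would make its difference 1.795. *GSY2* minus *GLG1* was 1.416, 1.389 and 1.185 in VIN7 (SD 0.13, n = 3), and -1.077, 0.660 and -0.654 in W27 (exact permutation p = 0.1, adjusted 0.15). *GLC3* minus *GLG1* overlapped between the strains (exact permutation p = 0.5). Both pairs that part the strains hold *GSY2*, which parted them by itself, with every VIN7 array above every W27 array (9.87% of 2674 ORFs). The share of all gene pairs that part the strains was not computed.

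**Figure D4:**
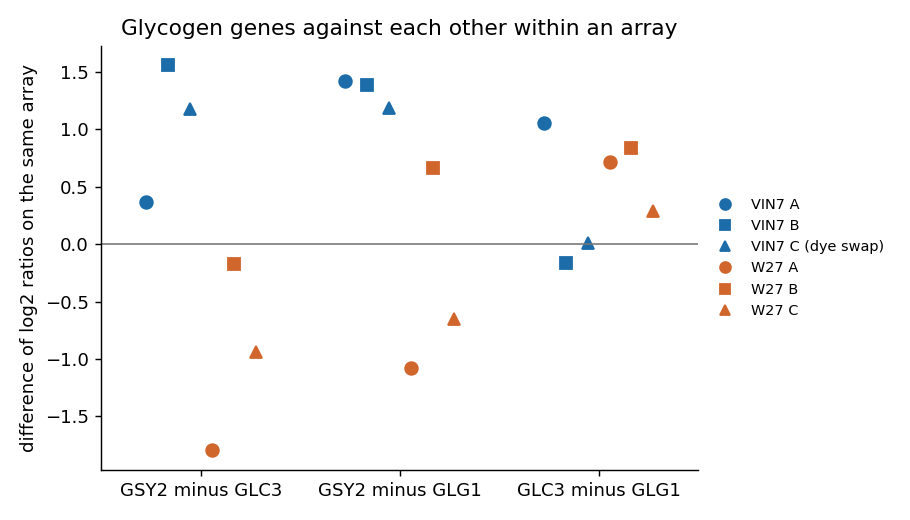
Difference between the log2 ratios (12°C over 28°C) of a pair of glycogen genes on the same array (y axis), for the 3 pairs measured on all arrays, with points as strain (colour) and replicate (shape). *GSY2* minus *GLC3* is above 0 on the 3 VIN7 arrays and below 0 on the 3 W27 arrays, whereas *GLC3* minus *GLG1* overlaps.

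To set the genes in context, 24 other ORFs of glycogen metabolism and its control were taken from a list covering the supply of UDP-glucose, the phosphatase and its targeting subunits, the kinases that act on synthase, a glucoamylase and the cAMP and stress signalling above them. Of these, 21 had a row. In VIN7, 0 of 20 tested were called by limma and 0 had an unadjusted p under 0.05, 11 had a mean above 0, and the median of their means was 0.13. In W27, 0 of 21 were called, 1 had an unadjusted p under 0.05, 10 had a mean above 0, and the median was -0.016. The counts above 0, at 55.0% and 47.6%, were near the 48.5% of all ORFs in either strain. Of all ORFs, 5.47% in VIN7 and 7.27% in W27 had an unadjusted p under 0.05 by limma.

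The W27 gene with an unadjusted p under 0.05 was *GLC7* (YER133W), the phosphatase that reactivates synthase. Its W27 values were 1.849, 2.189 and 2.401 (replicates A to C), a mean of 2.15 ± 0.28 (SD, n = 3; limma adjusted p = 0.661), and so did not share the turn of W27 A seen for *GSY2*, *GLC3* and *GLG1*. In VIN7 it was at 1.735 and 2.347 on arrays A and B but at -0.200 on the dye-swapped VIN7 C. *GLC7* was thus high on every array without the dye swap and below 0 on the only array with it. W27 has no swapped array, so dye and temperature cannot be told apart for *GLC7* there. The part of the dye in its values was not tested. *GLC7* stands in the study's W27 list, drawn from these arrays. Its protein serves many processes beside glycogen, and its RNA is no measure of its activity on synthase. In W27, 3 of the 21 tested ORFs of this list had a median over arrays of at least 1, against 10.3% of all ORFs. In VIN7, 1 of the 20 tested was at least at 1 and 1 at most at -1, against 5.71% and 4.10% of all ORFs. Beside *GLC7*, a pair of ORFs of this list, each with 2 values in the strain, had a median of at least 2-fold with the same sign on both arrays. They are given by identifier, since the study's supplementary list does not name them. YKL166C had a VIN7 mean below 0 (-1.08 ± 1.33 (SD, n = 2), limma adjusted p = 0.612), and YKL062W had a W27 mean of 1.23 ± 1.64 (SD, n = 2, limma adjusted p = 0.718).

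Genes of the general stress response, which in yeast are commonly induced together with glycogen genes, formed a second list of 11 ORFs. In VIN7, 8 of 10 tested had a mean above 0 (median 0.65), and in W27, 7 of 9 (median 0.35), with 0 called by limma in either strain and 1, *DDR2*, at an unadjusted p under 0.05, in W27. Of all ORFs, 48.5% had a mean above 0 in either strain, and 7.27% had an unadjusted p under 0.05 by limma in W27. The share of all ORFs above 0 on an array ran from 47.1% (W27 A) to 53.2% (W27 C). The VIN7 count rested largely on VIN7 B, where 6 of 8 measured were above 0 with a median of 2.05. It was 5 of 9 on VIN7 A (median 0.15) and 6 of 11 on VIN7 C (median 0.016). On W27 A, 9 of the 10 measured were above 0 (median 1.02), the reverse of the glycogen genes on that array, whereas W27 B had 5 of 9 above 0 (median 0.14), and for W27 C it was 2 of 5 (median -0.14). *DDR2* (YOL052C-A), a DNA damage and stress response gene, had log2 ratios of 3.750 and 0.381 on VIN7 B and C and of 3.683 and 0.939 on W27 A and B. *HSP12* (YFL014W), a small heat shock protein, had 1 value per strain, -1.427 on VIN7 C and 1.429 on W27 A. YML100W, which the study's supplementary list does not name, had a VIN7 mean of 1.47 ± 1.19 (SD, n = 2, limma adjusted p = 0.612). A median over arrays of at least 1 was reached by 2 of the 10 tested in VIN7 (all ORFs 5.71%) and by 1 of 9 in W27 (all ORFs 10.3%). The median of the stress list and *GSY2* thus had opposite signs on W27 A, where *GSY2* was at -2.235.

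Finally, the ORFs whose percentiles were closest to those of a glycogen gene over all 6 arrays were sought among 2673 ORFs. For *GSY2* they were YGR069W, with a mean absolute difference of 4.00 percentile points, *ELA1* (YNL230C), with 5.12, and *MRPL8* (YJL063C), with 5.57. Picked for nearness to *GSY2* on these arrays, each was above 0 on all 3 VIN7 arrays and low on W27 A, at -2.229, -1.959 and -3.011. For *GLC3* the closest was YOR298W (4.95 points) and for *GLG1* YDR390C (8.16 points), whose names no table used here gives. The other glycogen genes were further off: *GSY2* stood 27.8 points from *GLC3* and 35.1 from *GLG1* over 6 arrays, 20.5 from *GLG2* over 4, and 7.36 from *GDB1* over the 2 arrays they share. By their choice the closest ORFs are at least as near as any glycogen gene with values on all 6 arrays, and a typical distance between ORFs was not computed. The distances rest on 6 arrays of uneven quality and are given as a description.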

How the data were processed

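The authors scanned the arrays with GenePix, corrected the background in GenePix Pro 6.0, and in Acuity 4.0 normalized each array, filtered spots by flag and corrected print tip effects by hand. The deposited values are log2 ratios of 12°C against 28°C, 1 for each ORF on each array. How the arrays were centred is not stated exactly (a log2 ratio value of 1 is named), and scanner values were not analysed here. Strain, replicate and dye came from the labels, and 0 value columns were left unused.

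Each strain's mean was tested against 0, and W27 minus VIN7 over the 6 arrays, with limma 3.58.1 in R 4.3.3 (lmFit, eBayes) on ORFs with at least 2 values per strain. p-values were adjusted over all ORFs tested (Benjamini-Hochberg), at a threshold of 0.05. The number of arrays limits the precision. SAM (8 sign flips of 3 arrays) was written for this work. The models were run on simulated data with independent noise of equal spread on all arrays. That setting lacks the uneven spread and the opposed W27 A of the real arrays, so it does not show how the models perform here. Alternatives were median centring, a common spread, complete values, a joint model, a dye term, array weights, SAM, the median, a replicate block, leaving out each array, turning VIN7 C or W27 A, and a log2 ratio of 2 as the threshold. The genes and lists were chosen with earlier results of these data known. All 8 glycogen genes were to be named, with listed genes of the same sign on all measured arrays (at least 2) and a median of 2-fold, and the 3 nearest ORFs by percentile. *HSP12*, with 1 value per strain, was named outside this rule. Other names came from the study's supplementary list. No sequences were used.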

Additional observations from a re-analysis of the deposited data

Results flagged for a closer look

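The difference between *GSY2* and *GLC3* within an array, in log2 ratios of 12°C over 28°C, was above 0 on all 3 VIN7 arrays (0.365 to 1.557) and below 0 on all 3 W27 arrays (-1.795 to -0.173), so that W27 minus VIN7 was -2.001. It was singled out because its sign on every VIN7 array was opposite to its sign on every W27 array. The size of -2.001 leaned on W27 A, which held the lowest W27 value, -1.795. The remaining W27 arrays, B at -0.173 and C at -0.938, kept the sign. If the sign of W27 A were turned, its difference would be 1.795, above every VIN7 array, and the strains would no longer part. *GSY2* by itself had every VIN7 array above every W27 array, as did 9.87% of 2674 ORFs. The share of all gene pairs that part the strains was not computed. The pair was chosen after its values were seen, and the exact permutation p of 0.1 is the smallest that 3 against 3 arrays can give. That p follows from the order of the values and is no further support. The spread of the arrays differed, and its part in the result was not tested. No group was large enough to test for single arrays that stand apart.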

How the results depend on the processing

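The number of arrays limits these results. Leaving out W27 A turned the W27 means of *GLG1* and *GSY2* but not that of *GLC3*, and *GLG2* has no value on it. By limma, 0 ORFs were called in VIN7 under every alternative run (279 at an unadjusted p under 0.05 in the fit reported), and 11 by SAM. In W27, 1743 were called with array weights, 5 by SAM, and between 0 and 1540 when an array was left out, with 1540 without W27 A. Between the strains, 37 were called with array weights. Counting the single value of *GLG2* beside the 3 genes tested, 2 of 4 glycogen genes had a W27 mean above 0, and 4 of 4 with array weights or W27 A turned. With complete values or a dye term it was 1 of 3, since *GLG2* drops out and no gene turned. When an array was left out it ran from 1 (of 3, without W27 B) to 4 (of 4, without W27 A). The VIN7 genes past 2-fold fell from 2 to 0 at a log2 ratio of 2. The VIN7 median over the glycogen genes, 0.48, ran from 0.37 to 0.73 when an array was left out and was 0.28 with VIN7 C turned. The VIN7 mean of *GLC3* ran from 0.017 without VIN7 A to 0.46 with array weights, against 0.26. That of *GDB1*, 1.20, was 0.65 with array weights, 0.76 with VIN7 C turned, and 0.436 without VIN7 B and 1.965 without VIN7 C, each a single value. That of *GLG2*, 0.48, was 0.18 with array weights, 0.19 without VIN7 B, 0.73 without VIN7 A and 0.22 with VIN7 C turned.

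In W27, *GSY2* turned from -0.50 to 0.32 with array weights, 0.99 with W27 A turned and 0.09 for the median over arrays, and ran from -1.07 to 0.36 when an array was left out. *GLG1* turned from -0.147 to 0.0044 with a common spread, 0.25 with array weights and 0.63 with W27 A turned, and ran from -0.59 to 0.36 when an array was left out. Its VIN7 mean ran from -0.16 to 0.096 when an array was left out. W27 minus VIN7 for *GLG1* turned to 0.12 with a common spread, 0.46 with array weights and 0.66 with W27 A turned, and ran from -0.56 to 0.39 when an array was left out. That of *GLC3* ran from -0.081 to 0.65 in this way. *GSY2* was above 0 in VIN7 and lower in W27 than in VIN7 under every alternative run, with limma adjusted p between 0.226 and 0.999 in VIN7. *GLC3* was above 0 in W27 under every alternative run, between 0.18 and 0.92, with limma adjusted p between 0.0188 and 1. The cause of these shifts was not tested. The replicate letters did not pair the strains (r of the deviations -0.11 for A, 0.11 for B and -0.26 for C). As a replicate block they left *GSY2* at -1.80 between the strains (limma adjusted p = 0.984) and 0 ORFs called.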
